A study of Homo sapiens with 12 samples.

Results

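ACHN is an established line of human renal carcinoma cells, and the response of its transcriptome to silencing of NUF2 was measured in 6 of the 12 libraries of the series, chosen as those whose labels name ACHN. In 3 of them the cells had received an siRNA against NUF2 (si-NUF2, which per the study's text comprises siRNA-NUF2-2 and siRNA-NUF2-3) and in 3 a negative control siRNA (si-NC). For all 6 libraries the cells were transfected with the same lipid reagent, and total RNA was taken 48 h later, so the si-NC cells carry the transfection but not the silencing. The other 6 libraries hold 769-P cells, a second renal carcinoma line treated in the same way, and serve only to show where ACHN cells differ. The labels number the replicates 1 to 3 in each group and do not say whether a number marks a separate culture. The limma p-values below come from fits with the number as a block. They measure how far the differences between same-numbered libraries spread, which may be technical. One cell line and 1 mixture of siRNAs were used, so effects of either siRNA on RNAs other than NUF2 cannot be told apart from effects of losing NUF2.

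NUF2 is a subunit of the NDC80 complex, a rod that sits at the outer kinetochore and holds the ends of spindle microtubules while chromosomes align. The rod pairs NUF2 and NDC80 at its microtubule end with SPC24 and SPC25 at its centromere end, and the kinetochore around it recruits the BUB and MAD proteins of the spindle assembly checkpoint, which delay anaphase until every chromosome is attached. Genes of this machinery are transcribed late in the cell cycle through CCAAT and CHR promoter elements, and genes of DNA replication earlier through E2F. HMGA2, an architectural chromatin protein of embryonic and tumor cells, and KDM2A, a demethylase of histone H3 lysine 36, are the genes on which the study built its account.

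Levels are given as FPKM, the fragments of a gene divided by its exon length and by the depth of the library, after a further scaling within ACHN cells by a trimmed mean of log ratios. The recovered whole reads summed to between 33648691 and 38662437 per library. The lines' labelled origin, clear cell renal cell carcinoma, was checked against marker genes. The renal lineage factors PAX8 and PAX2 were present in ACHN cells at 56.97 to 198 and 13.6 to 23.8 FPKM. The tubular genes LRP2 and SLC22A6 and the renal lineage gene WT1 were listed at 0 in all 6 libraries. CA9, the carbonic anhydrase that is the usual marker of clear cell tumors, was near 0 at 0.0176 to 0.121 FPKM, as was the hypoxia target EGLN3 (0.00352 to 0.0154). VHL, the tumor suppressor commonly lost in clear cell tumors, was at 14.97 to 25.3 FPKM, and MET at 86.9 to 143. In all, 13 of the 15 clear cell markers had a median of 0.5 FPKM or more, among them NNMT (84.5 to 104), CD70 (30.3 to 62.9), SLC2A1 (22.8 to 27.3) and ANGPTL4 (7.47 to 30.1), and CA9 and EGLN3 were those below. That list also holds the tumor suppressors VHL, PBRM1, SETD2 and BAP1, whose presence does not mark a clear cell tumor. Of 6 papillary markers, 5 reached the same median, so these counts do not settle the origin. Markers of blood cells (15 genes) and endothelium (8 genes) stayed at or below 0.124 and 0.0517 FPKM.

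Before any effect of si-NUF2, the libraries fell apart by replicate number. The largest principal component held 48.9% of the variance and set replicate 1 against replicate 2 in both groups, the next held 21.1% and set replicate 3 apart, and si-NUF2 and si-NC were separated by the component after that, with 14.9%. Libraries of the same number in different groups correlated at 0.973 to 0.979 over genes, and libraries of the same group at 0.933 to 0.961. The genes behind this split, named here for that spread after their values were seen, were led by inflammatory genes. CSF2, a myeloid growth factor, was at 145, 0.294 and 76.7 FPKM with si-NUF2 and 172, 0.329 and 107 with si-NC in replicates 1 to 3. C3, the central complement protein, was at 297, 1.26 and 103 FPKM with si-NUF2 and 319.9, 1.805 and 138 with si-NC, and IL6 at 252, 3.05 and 197 FPKM with si-NUF2 and 299.8, 3.301 and 192 with si-NC. In each of these genes both replicate 2 libraries lay far below the other 4, whichever siRNA the cells had received. The neutrophil chemokine CXCL8 had the same form (328, 3.43 and 237 FPKM with si-NUF2 and 612, 2.91 and 291 with si-NC), and so did SOD2, a mitochondrial superoxide dismutase induced by NF-kB (118, 4.303 and 194 FPKM with si-NUF2 and 117, 4.26 and 167 with si-NC). The immediate early factor EGR1 went the other way, with 1.14, 26.8 and 1.99 FPKM with si-NUF2 and 0.945, 24.1 and 1.37 with si-NC, highest in replicate 2. Of the 20 tested genes with a mean of at least 4 FPKM that varied most between the numbers, 18 were lowest in replicate 2. In all, 1945 of the 15116 genes tested spanned more than 1 on the log2 scale between the numbers, against 227 whose fold change with si-NUF2 passed 1. What made the numbers differ was not tested. The replicate number was therefore taken as a block, and every fold change below compares same-numbered libraries.

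**Figure D1:**
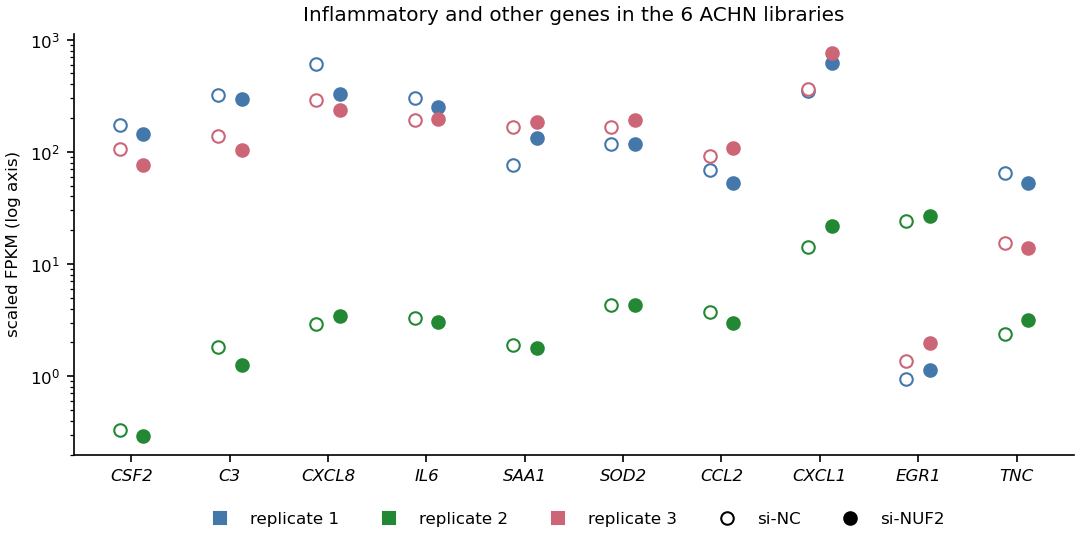
Scaled FPKM (vertical log axis) of 10 of the genes that varied most between replicate numbers, in the 6 ACHN libraries: color marks the replicate, open circles si-NC and filled circles si-NUF2. In 9 of the 10 genes the pair of replicate 2 points lies below all others, and in EGR1 above them.

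NUF2 itself (ENSG00000143228, chromosome 1, 163266576 to 163355764, forward strand, GRCh38) was at 2.19, 5.14 and 4.28 FPKM with si-NUF2 and 11.4, 14.97 and 14.7 with si-NC in replicates 1 to 3. Every si-NUF2 library lay below every si-NC library, and the groups did not overlap. Relative to the control of the same number, 19.1%, 34.4% and 29.1% of the level was left, so the loss was deepest in replicate 1. The log2 fold change was -1.87 ± 0.16 (SE, n = 3 per group, 95% interval -2.28 to -1.47), with an adjusted p = 0.0123 by limma. An exact permutation test of the levels, which did not use the pairing by number, gave a two-sided p = 0.1, the smallest that 3 against 3 unpaired libraries allow. The other subunits of the complex were not called. NDC80 was at 4.96, 7.74 and 8.59 FPKM with si-NUF2 and 4.33, 6.24 and 7.86 with si-NC, a change of 0.21 ± 0.06 (adjusted p = 0.0851), SPC25 changed by 0.23 ± 0.052 (adjusted p = 0.0521) and SPC24 by 0.14 ± 0.11 (adjusted p = 0.4396). All 3 values were above 0, and by limma none passed the test.

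Over all genes, 15116 passed the filter, which asked for 0.5 FPKM or more in 3 or more ACHN libraries, of 33233 above 0 in any. Among them 1079 were upregulated DEGs (7.14%) and 764 downregulated DEGs (5.05%) at an adjusted p under 0.05, together 12.2%. The changes were small: the median was 0.41 among upregulated and -0.405 among downregulated DEGs, and 47 and 26 of them passed 1 on the log2 scale. The median of all genes tested was 0.0061. Calls were more frequent at higher levels, with 19.1% called in the highest and 2.20% in the lowest of 4 equal bins of mean FPKM. The same sign in all 3 same-numbered pairs was found upward for 29.2% and downward for 25.6% of all genes tested, which is the background for such counts below. For counts of calls the background is the 7.14% called higher and 5.05% called lower. The calls rest on the block, on the filter of low values and on having all 3 replicates. Without the block no gene was called by limma, although 1238 had an unadjusted p under 0.05, and the median standard error was 0.185 in place of 0.0775. Without the filter no gene was called either. Without replicate 3 no gene was called (3491 with an unadjusted p under 0.05, lowest adjusted p = 0.0797, limma). Without replicate 1 there were 373 DEGs (3882 with an unadjusted p under 0.05) and without replicate 2 there were 833 (4039). These fits have fewer libraries, so their counts do not single out 1 replicate. limma-voom on the recovered reads, with the block, called 3520 of 14828 genes.

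**Figure D2:**
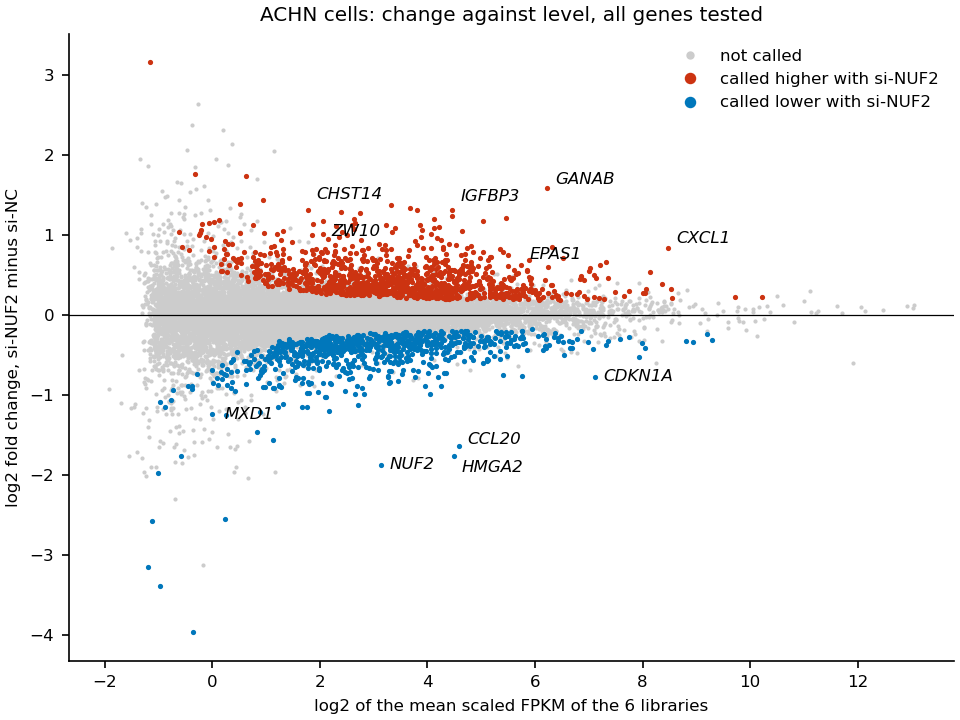
Log2 fold change of si-NUF2 against si-NC (vertical) over the log2 of the mean scaled FPKM (horizontal) for the 15116 genes tested in ACHN cells, with the 1079 upregulated DEGs in red, the 764 downregulated DEGs in blue and other genes in gray. Most DEGs lie within 1 of zero, and HMGA2, NUF2 and CCL20 stand below the rest at their level.

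HMGA2 was the DEG with the lowest adjusted p and, apart from NUF2 and a small RNA copy with few reads, the largest fall among the named genes. HMGA2 (ENSG00000149948, chromosome 12, 65824131 to 65966295, forward strand) was at 16.02, 5.39 and 9.36 FPKM with si-NUF2 and 51.2, 18.2 and 34.6 with si-NC. All 3 si-NUF2 libraries were below all si-NC libraries although the control level itself ranged almost as widely as the effect, and the log2 fold change was -1.76 ± 0.057 (adjusted p = 0.008003). It was the single gene called at an adjusted p under 0.01. Next came CCL20, a chemokine for memory lymphocytes and immature dendritic cells, at 7.98, 0.409 and 26.3 FPKM with si-NUF2 and 39.8, 1.098 and 68.8 with si-NC (-1.64 ± 0.21, adjusted p = 0.0197). It fell in each pair, but its groups overlapped because replicate 2 was low in both. MXD1, a partner of MAX that opposes MYC, was at 0.879, 1.96 and 1.55 FPKM with si-NUF2 and 2.91, 3.09 and 3.69 with si-NC (-1.15 ± 0.19, adjusted p = 0.0299), with groups that did not overlap. KCNJ16, an inward rectifier potassium channel of the kidney tubule, was at 9.28, 0.798 and 2.45 FPKM with si-NUF2 and 19.5, 1.93 and 5.57 with si-NC, which is 0.457 times the control and fell by like factors in the 3 pairs (-1.13 ± 0.061, adjusted p = 0.0116). PIK3IP1, an inhibitor of PI3 kinase, fell by 1.20 on the log2 scale, MEST, an imprinted gene of the hydrolase fold, by 1.47, KRT15, a basal keratin, by 1.21, and BMT2, a sensor of S-adenosylmethionine, by 1.15. LURAP1L (-1.57), SMTNL2 (-1.15) and MAB21L3 (-1.11) made up the rest of the lowest coding genes. The ranking covers DEGs with a mean of at least 1 FPKM and the same sign in all 3 pairs. Over all DEGs the log2 fold changes reached -3.97 and 3.155. The other 3 of the 15 lowest, the small nuclear RNA copies RNU6-853P and RNU1-70P and the antisense transcript AL137847.1, rest on 1 to 11, 1 to 13 and 6 to 40 reads per library, and whether counting used the strand is not given in the sources used here. In such bulk RNA, fewer cells in a state and less RNA per cell cannot be told apart.

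By the same ranking the highest coding gene was GANAB, the catalytic subunit of glucosidase II, which trims glucose from new glycoproteins in the endoplasmic reticulum. GANAB was measured at 105, 114 and 117 FPKM with si-NUF2 and 30.4, 46.5 and 36.9 with si-NC, a 2.98-fold rise (1.58 ± 0.1, adjusted p = 0.0116), and every si-NUF2 library was above every control. CHST14, a sulfotransferase of dermatan sulfate, was at 13.2, 15.9 and 14.4 FPKM with si-NUF2 and 4.69, 6.22 and 5.85 with si-NC (1.37 ± 0.058, adjusted p = 0.0116), and MESD, a chaperone of LDL receptor family proteins, at 7.75, 6.94 and 7.76 FPKM with si-NUF2 and 2.97, 3.02 and 3.03 with si-NC (1.29 ± 0.064, adjusted p = 0.0116). In both genes the libraries of a group lay close together and the groups did not overlap. PRDX4, the peroxiredoxin of the endoplasmic reticulum, rose by 1.19, TPM4, a tropomyosin of actin filaments, by 1.31, BICD2, an adaptor of dynein, by 1.19, the palmitoyltransferase ZDHHC18 by 1.33, NOLC1, a nucleolar phosphoprotein, by 1.21 and the zinc finger gene ZNF267 by 1.30. IGFBP3, a secreted binder of insulin-like growth factors, was at 9.19, 64.03 and 20.8 FPKM with si-NUF2 and 4.47, 27.4 and 6.38 with si-NC (1.31 ± 0.13, adjusted p = 0.0137). Its groups overlapped, since replicate 2 was high with either siRNA, as they did for ZBED2 (1.23), the metalloproteinase MMP24 (1.28) and the growth factor receptor FGFR2, which was at 0.798, 5.98 and 1.19 FPKM with si-NUF2 and 0.233, 3.16 and 0.228 with si-NC (1.44). Both Y_RNA copies among the 15 highest rest on at most 13 reads per library, and such multi-copy RNAs are uncertain.

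**Figure D3:**
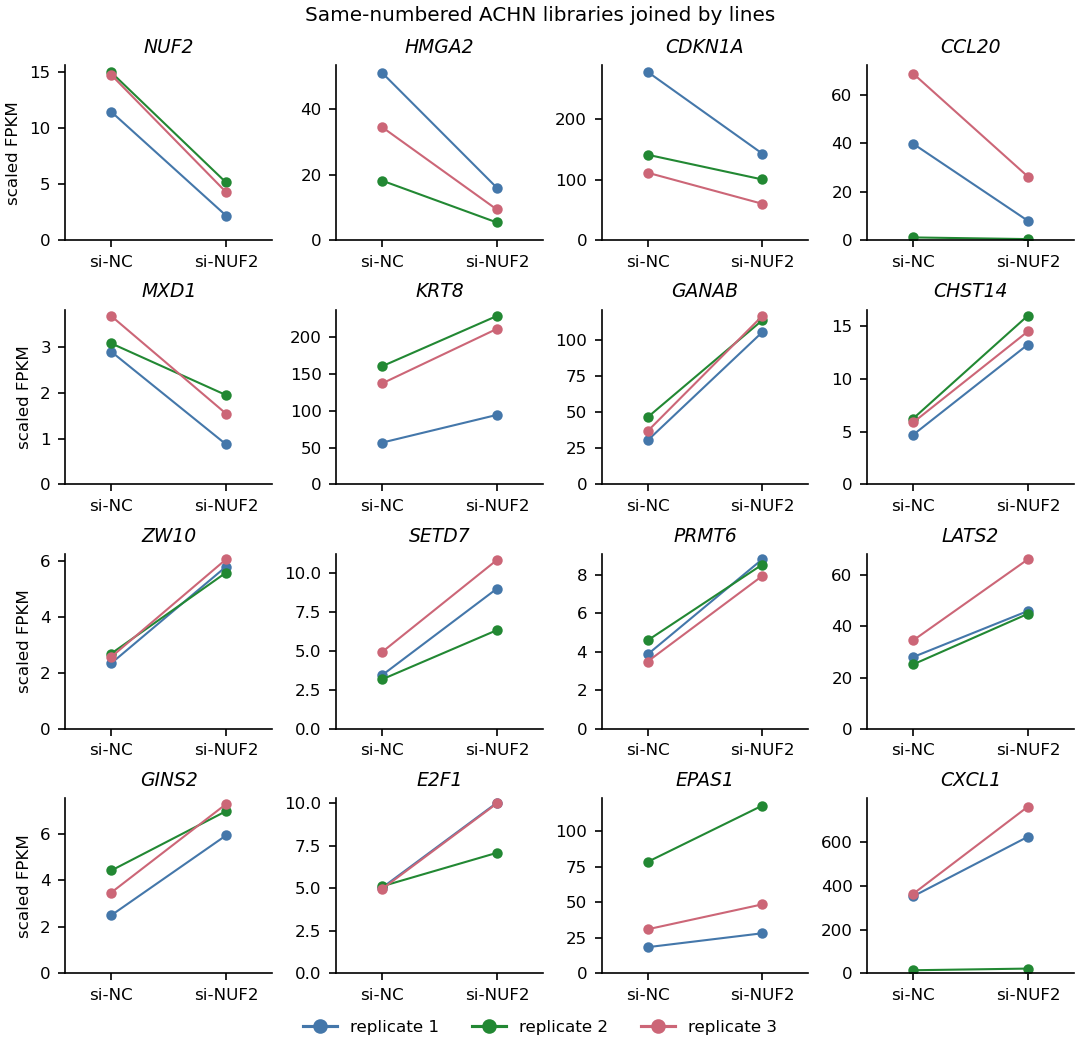
Scaled FPKM (vertical, from 0) of 16 named genes in ACHN cells, with si-NC on the left and si-NUF2 on the right of each panel, 1 line per replicate number. All lines of a panel run in the same direction, while the replicates start from levels that for CCL20, CXCL1 and EPAS1 differ more than the siRNA changes them.

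Genes of DNA replication and nucleotide supply were higher with si-NUF2 in ACHN cells, many of them past the test. All 45 of 45 listed genes had a log2 fold change above 0, 41 were higher in all 3 pairs (background 29.2%), 18 were called higher (background 7.14%) and 0 lower, and their median was 0.42, against 0.0061 over all genes. GINS2, a subunit of the GINS complex of the replicative helicase, was at 5.94, 6.99 and 7.29 FPKM with si-NUF2 and 2.503, 4.43 and 3.48 with si-NC (0.97 ± 0.12, adjusted p = 0.0182). Its groups did not overlap, and the same held for CDT1, which loads the helicase onto origins, at 18.7, 18.6 and 22.4 FPKM with si-NUF2 and 11.6, 14.2 and 14.5 with si-NC (0.57 ± 0.071, adjusted p = 0.0187). TYMS, the thymidylate synthase, was at 20.4, 23.4 and 25.4 FPKM with si-NUF2 and 13.1, 17.9 and 17.3 with si-NC (0.52 ± 0.062, adjusted p = 0.0171), again apart. GINS1 rose by 0.57 and the primase subunit PRIM1 by 0.44. Without replicate 1 the median was 0.27 and 3 members were called, and with replicate 2 or 3 left out it was 0.47 and 0.39.

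Kinetochore and mitotic genes had smaller medians. Of 41 kinetochore and spindle checkpoint genes tested, 37 were above 0, 14 called higher and 1 lower (36.6% called, against 12.2% of all genes), with a median of 0.22. ZW10, which brings dynein to kinetochores, was the furthest, at 5.81, 5.59 and 6.07 FPKM with si-NUF2 and 2.35, 2.698 and 2.58 with si-NC (1.17 ± 0.073, adjusted p = 0.0116), with groups clearly apart. The centromeric histone CENPA rose by 0.59 ± 0.051 (adjusted p = 0.0123), survivin (BIRC5) by 0.56 ± 0.049 (adjusted p = 0.0123), the checkpoint protein MAD1L1 by 0.63 and the checkpoint kinase BUB1 by 0.47. The single member called lower was MIS12, a kinetochore scaffold protein, at 5.505, 6.12 and 5.76 FPKM with si-NUF2 and 7.78, 7.37 and 8.202 with si-NC (-0.42 ± 0.069, adjusted p = 0.0288), which falls outside the rule for named genes and was chosen after its values were seen. Of 47 genes of mitotic entry, spindle and cytokinesis, 40 were above 0, 11 called higher and 0 lower (23.4% called), with a median of 0.18. The called ones included the spindle protein TACC3 (0.44), RACGAP1 (0.35) and PRC1 (0.32) of the central spindle, the condensin subunit NCAPD2 (0.29) and cyclin F (CCNF, 0.33). Of 28 DNA repair genes, 3 were called higher, RAD54L (0.33) and FANCI (0.29) among them, and the resection factor RBBP8 was called lower (-0.35), a share of 14.3% near the 12.2% of all genes. Without replicate 1, 4 kinetochore and 0 mitotic genes were called higher, and the medians were 0.14 and 0.15.

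Promoter sequence of a few of these genes is shown because many of the group passed the test, and the windows were chosen among those that hold a match. The windows of GINS1 and PRIM1 hold no E2F match and that of BUB1 no CHR match. The windows are the 250 bases before the RefSeq start site, written 5′ to 3′ in the direction of the gene with coordinates of GRCh38.p14, and capitals mark the element named. The E2F element was searched as TTTCCCGC or TTTGGCGC, a choice made after the data were seen, and the CHR element as TTTGAA or TTCGAA, each on both strands.
GINS2, chr16:85688955-85689204, reverse strand: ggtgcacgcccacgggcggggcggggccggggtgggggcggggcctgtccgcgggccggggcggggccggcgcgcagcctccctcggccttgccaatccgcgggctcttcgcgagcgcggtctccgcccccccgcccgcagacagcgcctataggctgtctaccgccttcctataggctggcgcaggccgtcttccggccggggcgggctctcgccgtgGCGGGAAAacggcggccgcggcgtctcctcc
CDT1, chr16:88803539-88803788, forward strand: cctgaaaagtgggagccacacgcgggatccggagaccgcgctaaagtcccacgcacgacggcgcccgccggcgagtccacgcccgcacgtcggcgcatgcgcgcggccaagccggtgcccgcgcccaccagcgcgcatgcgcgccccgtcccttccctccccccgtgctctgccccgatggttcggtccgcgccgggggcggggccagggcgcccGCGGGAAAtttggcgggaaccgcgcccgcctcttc
TYMS, chr18:657403-657652, forward strand: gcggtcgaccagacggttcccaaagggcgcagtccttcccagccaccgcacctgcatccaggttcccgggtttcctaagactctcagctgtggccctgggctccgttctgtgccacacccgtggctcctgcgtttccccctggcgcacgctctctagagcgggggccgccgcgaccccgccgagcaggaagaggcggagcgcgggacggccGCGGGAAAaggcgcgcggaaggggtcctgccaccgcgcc
E2F1, chr20:33686386-33686635, reverse strand: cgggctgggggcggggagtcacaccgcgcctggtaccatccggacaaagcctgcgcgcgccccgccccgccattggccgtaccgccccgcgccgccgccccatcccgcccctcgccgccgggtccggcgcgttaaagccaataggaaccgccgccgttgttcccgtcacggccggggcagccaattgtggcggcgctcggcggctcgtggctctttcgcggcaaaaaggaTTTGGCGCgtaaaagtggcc
CENPA, chr2:26785806-26786055, forward strand: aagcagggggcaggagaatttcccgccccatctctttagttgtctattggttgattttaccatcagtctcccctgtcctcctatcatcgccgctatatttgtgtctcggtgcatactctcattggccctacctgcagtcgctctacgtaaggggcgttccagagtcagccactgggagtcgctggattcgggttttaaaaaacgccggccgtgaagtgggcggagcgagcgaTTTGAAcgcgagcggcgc
The capitals are an E2F element in GINS2, CDT1, TYMS and E2F1, which begins 31, 35, 39 and 20 bases before the start site, and a CHR element in CENPA, which begins 18 bases before it. The CENPA window also holds an E2F element nearer its upstream end, left in lower case. An E2F element was found in 11 of 38 replication promoters with an entry (28.9%), against 3.15% of the 10177 promoters of genes tested. CCAAT, also on both strands, was found in 73.8% of 42 mitotic, 62.5% of 32 kinetochore and 57.9% of 38 replication promoters, against 34.9% of all, and the CHR element in 61.9%, 25% and 7.89%, against 9.22% of all. Upregulated DEGs as a whole held E2F elements in 4.49% of 824 promoters and downregulated DEGs in 2.36% of 552. A match describes the sequence and does not show that a factor binds.

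The regulators upstream of S phase split. E2F1, the activator of replication genes, was at 10.02, 7.08 and 9.98 FPKM with si-NUF2 and 5.03, 5.12 and 4.96 with si-NC (0.81 ± 0.12, adjusted p = 0.0241), and its 3 control values were nearly equal. The S phase kinase CDK2 rose by 0.34 ± 0.056 (adjusted p = 0.0288). CDKN1A, the p21 inhibitor of cyclin dependent kinases and a p53 target, was at 143, 100.2 and 60 FPKM with si-NUF2 and 278, 141 and 111 with si-NC (-0.78 ± 0.099, adjusted p = 0.0189), lower in every pair, although the groups overlapped because replicate 1 was high in both. Cyclin D2 (CCND2) was at 14.3, 8.66 and 7.76 FPKM with si-NUF2 and 22.7, 13.4 and 13.5 with si-NC (-0.69 ± 0.055, adjusted p = 0.0118), and the CDK4 and CDK6 inhibitor CDKN2C fell by 0.45 on the log2 scale. In the list of E2F factors and G1/S regulators 3 of 27 tested were called higher and 3 lower (22.2% called, against 12.2% of all genes), with a median of -0.037, or 0.014 without replicate 1. Among p53 targets 1 of 31 tested were called higher and 5 lower (19.35% called), with a median of -0.079 (-0.10 to -0.046 with 1 replicate left out), and 12 were lower in all 3 pairs (background 25.6%). Those called lower were CDKN1A, TP53INP1 (-0.62), PHLDA3 (-0.45), TP53I3 (-0.28) and MDM2, the ubiquitin ligase of p53 (-0.21, named after its value was seen), and the nucleotide excision repair factor XPC was called higher (0.46). In the BCL2 family, of 14 tested (21.4% called), the antiapoptotic BCL2L1 rose (0.33) while antiapoptotic MCL1 (-0.44) and the pore former BAK1 (-0.38) fell.

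Most interferon genes had values below 0 in ACHN cells. Of 33 interferon-stimulated effector genes tested 1 was called higher and 3 lower, 8 were above 0, and the median was -0.077 (-0.13 to -0.052 with 1 replicate left out). The share called, 12.1%, was near the 12.2% of all genes. IFIT3, an antiviral protein of the IFIT family, was at 8.696, 6.15 and 13.1 FPKM with si-NUF2 and 13.4, 8.81 and 17.3 with si-NC (-0.51 ± 0.061, adjusted p = 0.0171), lower in each pair with groups that overlapped. IFIT2 was at 4.23, 3.77 and 4.92 FPKM with si-NUF2 and 5.48, 5.27 and 6.43 with si-NC (-0.41 ± 0.057, adjusted p = 0.0215), with groups apart, PARP12 changed by -0.34, and the membrane protein IFITM3, at 80.8, 120.1 and 114 FPKM with si-NUF2 and 71.1, 103 and 86.3 with si-NC, was the member called higher (0.27 ± 0.056, adjusted p = 0.04398). Of 23 sensing and signalling genes (17.4% called) 21 were below 0, 14 in all 3 pairs, and 4 were called lower, among them the transcription factors STAT2 (-0.35) and IRF2 (-0.27) and the mitochondrial adaptor MAVS (-0.33). Of 17 genes of MHC class I and peptide loading (17.65% called), TAPBP (-0.22) and PSMB10 (-0.22) were called lower and PDIA3 higher (0.21).

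Most chemokines and cytokines had values below 0, on top of the split by replicate number described above. Of 17 chemokines and cytokines tested, 15 were below 0, 4 were called lower and 1 higher, with a median of -0.22 (-0.25 to -0.14 with 1 replicate left out). That is 29.4% called, against 12.2% of all genes, and 8 were lower in all 3 pairs (background 25.6%). The member called higher was CXCL1, a neutrophil chemokine, at 624, 21.7 and 762 FPKM with si-NUF2 and 352, 14.1 and 363 with si-NC (0.84 ± 0.089, adjusted p = 0.0152). It rose in every pair, and replicate 2 lay far below the others with either siRNA. IL32 (-0.50), the membrane chemokine CX3CL1 (-0.52) and LIF (-0.33) were the others called lower. CXCL8 (-0.32 ± 0.21, adjusted p = 0.346) and IL6 (-0.11 ± 0.065, adjusted p = 0.315) did not pass. Among NF-kB factors and feedback genes the share called, 13.0%, was near the 12.2% of all genes. Of 23 NF-kB factors and feedback genes, TRAF3, which restrains noncanonical NF-kB signalling, was at 8.87, 8.23 and 11.6 FPKM with si-NUF2 and 4.75, 5.15 and 5.96 with si-NC (0.83 ± 0.073, adjusted p = 0.0123), with groups apart, NFKBIB rose by 0.54, and BIRC3, an NF-kB target and ubiquitin ligase of the same complex, was at 20.1, 2.81 and 24.6 FPKM with si-NUF2 and 30.8, 6.29 and 33.9 with si-NC (-0.73 ± 0.14, adjusted p = 0.0352).
The promoters of the 2 chemokines that moved in opposite directions and of IFIT3 are shown with the NF-kB element (GGGAA, any 3 bases, CC) in the chemokines and the interferon element (GAAA, any 2 bases, GAAA) in IFIT3, searched on both strands, in capitals.
CXCL1, chr4:73869143-73869392, forward strand: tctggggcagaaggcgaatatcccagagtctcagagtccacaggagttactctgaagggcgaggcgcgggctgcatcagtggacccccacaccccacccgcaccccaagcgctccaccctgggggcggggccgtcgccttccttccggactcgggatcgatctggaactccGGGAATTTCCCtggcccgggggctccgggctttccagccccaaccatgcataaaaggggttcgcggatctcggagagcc
CCL20, chr2:227813592-227813841, forward strand: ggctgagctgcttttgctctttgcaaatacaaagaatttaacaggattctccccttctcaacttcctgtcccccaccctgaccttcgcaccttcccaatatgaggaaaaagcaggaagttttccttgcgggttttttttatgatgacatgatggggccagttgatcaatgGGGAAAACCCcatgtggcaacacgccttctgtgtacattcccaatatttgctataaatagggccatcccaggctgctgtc
IFIT3, chr10:89327747-89327996, forward strand: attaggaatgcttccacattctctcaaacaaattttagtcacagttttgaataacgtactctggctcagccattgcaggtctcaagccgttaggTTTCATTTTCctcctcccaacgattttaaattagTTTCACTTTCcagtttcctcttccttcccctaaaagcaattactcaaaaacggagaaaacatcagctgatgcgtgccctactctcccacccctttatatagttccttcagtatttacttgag
Both chemokine promoters hold an NF-kB element about equally far from the start site, beginning 79 and 80 bases before it (in CXCL1 with a second match on the opposite strand, shifted by 1 base), and IFIT3 holds 2 interferon elements. Such NF-kB matches stood in 8 of 11 chemokine promoters (72.7%) against 7.34% of all, and interferon elements in 16 of 25 effector promoters (64.0%) against 2.26% of all.

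The chromatin genes that the study drew from its own sequencing all rose, which follows from their choice on these samples and is not independent evidence. SETD7, a lysine methyltransferase, was at 9.001, 6.34 and 10.8 FPKM with si-NUF2 and 3.45, 3.18 and 4.94 with si-NC (1.15 ± 0.087, adjusted p = 0.0118), PRMT6, an arginine methyltransferase, at 8.82, 8.54 and 7.95 FPKM with si-NUF2 and 3.87, 4.599 and 3.501 with si-NC (1.07 ± 0.079, adjusted p = 0.0118), and KDM2A at 7.35, 7.72 and 7.31 FPKM with si-NUF2 and 5.14, 5.102 and 5.07 with si-NC (0.54 ± 0.053, adjusted p = 0.0134). In each the groups were apart, and the KDM2A libraries of a group were almost level. PCGF6 of a Polycomb complex rose by 0.75, BRPF1, a scaffold of histone acetyltransferases, by 0.65, BAHD1, a heterochromatin protein, by 0.60 and GATAD2A of the NuRD complex by 0.44. Of 22 lysine demethylases 2 were called higher, KDM2A and its paralog KDM2B (0.79), and KDM3B was called lower (-0.23), with a family median of -0.073, and the share called, 13.6%, was near the 12.2% of all genes. Of 32 lysine methyltransferases 5 were called higher, among them SUV39H2 (0.64) and NSD2 (0.30), a share of 15.6%, with a median of 0.011 that changed sign with the scaling. Of 8 arginine methyltransferases only PRMT6 was called, and of 14 genes of DNA methylation only the maintenance enzyme DNMT1 (0.46 ± 0.054, adjusted p = 0.0171). Those shares, 12.5% and 7.14%, were near and below the 12.2% of all genes. Of 15 clustered histone genes above the filter, HIST1H2BD was called higher (0.70) and HIST2H2AC lower (-0.92), a share of 13.3% near that of all genes.

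Other oncofetal genes were called beside HMGA2. In the list of HMGA genes and let-7 targets, named for the miRNA that represses them, 3 of 19 tested were called higher and 5 lower, with a median of -0.11, or -0.035 without replicate 1. That is 42.1% called, against 12.2% of all genes. IGF2BP3, an oncofetal RNA binding protein, was at 2.77, 5.28 and 3.45 FPKM with si-NUF2 and 6.39, 8.09 and 7.34 with si-NC (-0.95 ± 0.12, adjusted p = 0.0191), with groups apart, and CCND2, given above, belongs to the same list. ARID3A rose (0.59), and so did THBS1, a secreted matricellular protein, at 186, 474 and 334 FPKM with si-NUF2 and 116, 355 and 236 with si-NC (0.53 ± 0.061, adjusted p = 0.0168). Of 14 genes of the small RNA machinery, DROSHA, which cuts primary miRNAs, rose by 0.49, and AGO2 and TNRC6A of the silencing complex changed by -0.34 and -0.50, all 3 called (a share of 21.4%).

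Epithelial and adhesion genes shifted in part. E-cadherin (CDH1) was at 15.4, 7.03 and 9.95 FPKM with si-NUF2 and 10.04, 5.26 and 4.66 with si-NC, higher in every pair (0.70 ± 0.13, adjusted p = 0.0369), with overlapping groups. The simple epithelial keratins KRT8, at 94.4, 229 and 211 FPKM with si-NUF2 and 56.8, 160.4 and 137 with si-NC (0.62 ± 0.054, adjusted p = 0.0123), and KRT18 (0.60 ± 0.043, adjusted p = 0.0118) rose with it, and S100A4, a calcium binding protein of motile cells, fell by 0.61. The other 15 of the 19 genes of the epithelial-mesenchymal switch that were tested were not called, and the median of the list changed sign with the scaling. Of 26 integrins and laminins, 5 were called lower and 1 higher (23.1% called, against 12.2% of all genes). ITGA2, the collagen receptor subunit, was at 3.63, 1.56 and 2.32 FPKM with si-NUF2 and 5.39, 3.402 and 4.65 with si-NC (-0.87 ± 0.12, adjusted p = 0.0203), and the laminin chains LAMB3 (-0.61), LAMC1 (-0.42) and LAMA5 (-0.41) and the integrin ITGAV (-0.30) fell too. Among 19 collagens, 3 were called higher and 2 lower (26.3% called). COL4A1, a basement membrane chain, was at 149.5, 198 and 238 FPKM with si-NUF2 and 91.5, 140.1 and 139 with si-NC (0.66 ± 0.065, adjusted p = 0.0134), with groups apart, and COL6A1 fell by 0.46. Of 17 genes of the urokinase system and metalloproteinases (23.5% called), MMP24 was called higher, and TIMP2 (-0.24), ADAMTS1 (-0.39) and ADAM9 (-0.21) lower.

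In the cytoskeleton, 7 of 28 actin and contraction genes were called higher and 1 lower (28.6% called, against 12.2% of all genes). TPM4 was at 28.1, 14.5 and 17.8 FPKM with si-NUF2 and 9.01, 6.13 and 8.33 with si-NC (1.31 ± 0.11, adjusted p = 0.0123), nonmuscle myosin MYH9 at 445, 368 and 416 FPKM with si-NUF2 and 382, 281 and 321 with si-NC (0.33 ± 0.05, adjusted p = 0.0259), and myosin light chain kinase MYLK rose by 0.49, while the single member called lower, TPM1, changed by -0.23 ± 0.041 (adjusted p = 0.03401). Tropomyosins TPM4 and TPM1 thus went in opposite directions, each in all 3 pairs. TUBA1C (0.43) and TUBB (0.23) were called higher among 16 tubulins and none lower, a share of 12.5% that was near the 12.2% of all genes. Of 16 intermediate filament genes (31.25% called), NEFL, a neurofilament chain, was at 23.03, 3.79 and 3.37 FPKM with si-NUF2 and 38.7, 6.48 and 6.02 with si-NC, nearly the same proportional fall in each pair (-0.78 ± 0.049, adjusted p = 0.0116), and lamin B1 (LMNB1) fell by 0.49 while lamin B2 (LMNB2) rose by 0.22.

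Among the signalling lists, the YAP/TEAD pathway had 9 of its 24 tested genes called higher and 1 lower (median 0.11, 0.059 to 0.17 with 1 replicate left out), 41.7% called against 12.2% of all genes. Members of opposite roles rose together. LATS2, the kinase that inhibits YAP, was at 45.9, 44.8 and 66.05 FPKM with si-NUF2 and 27.99, 25.1 and 34.5 with si-NC (0.83 ± 0.056, adjusted p = 0.0116), VGLL4, which competes with YAP for TEAD, rose by 0.70, and the YAP targets CTGF and CYR61 rose by 0.69 and 0.39, while the DNA binding partner TEAD3 fell by 0.48. Of 16 receptor tyrosine kinases, 5 were called higher and 2 lower (43.75% called): ROR1 (0.69), IGF1R (0.32) and AXL (0.22) rose, and MET, the receptor of hepatocyte growth factor, was at 97.4, 86.9 and 109 FPKM with si-NUF2 and 120.4, 101 and 143 with si-NC (-0.31 ± 0.049, adjusted p = 0.0273). In the TGF-beta list of 30 genes (23.3% called), 5 were called lower, SMAD3 (-0.30), the inhibitory SMAD7 (-0.34), SKIL (-0.44) and the receptor BMPR2 (-0.48) among them, and 2 higher, of which SKI had 0.38. Of the 10 genes of the MYC, MAX and MXD network (30% called), the MYC antagonists MXD1, MXI1 (-0.64) and MXD4 (-0.40) were called lower and none was called higher. Of 25 AP-1 and immediate early genes (16% called) KLF4 fell (-0.72) and BATF3, IER2 and IER3 rose by 0.36, 0.27 and 0.20. In the Wnt list 1 of 26 was called, the repressor TCF7L1 (0.68 ± 0.11, adjusted p = 0.0277), a share of 3.85% against 12.2% of all genes. EPAS1, the HIF2 alpha subunit of hypoxia signalling, was at 28.1, 118 and 48.4 FPKM with si-NUF2 and 18.4, 78.2 and 30.9 with si-NC (0.62 ± 0.04, adjusted p = 0.0116), highest in replicate 2 under both siRNAs. The hypoxia targets adrenomedullin (ADM) and PFKFB3 rose by 0.64 and 0.37, and the other 22 of 25 in that list were not called, a called share of 12% against 12.2% of all genes.

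Ribosome biogenesis factors, a list added after the data were seen, were above 0 in 67 of 80 cases, with 22 called higher and 0 called lower at an adjusted p under 0.05 by limma (median 0.14, 58 higher in all 3 pairs). That is 27.5% called, against 12.2% of all genes. NOLC1 was at 52.8, 64.9 and 64.8 FPKM with si-NUF2 and 19.2, 32.8 and 28.7 with si-NC (1.21 ± 0.095, adjusted p = 0.0118), and the helicase DHX37, needed for the small subunit, at 16.1, 21.9 and 20.7 FPKM with si-NUF2 and 8.24, 12.2 and 9.54 with si-NC (0.97 ± 0.066, adjusted p = 0.0116), both with groups apart. TCOF1, MAK16 and GTPBP4 rose by 0.57, 0.58 and 0.48. The 79 cytosolic ribosomal proteins lay close to 0, with a median of 0.059 and 3 called higher (3.80% called), RPL22L1 (0.51), RPS26 (0.30) and RPS12 (0.22).

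The ATF4, NRF2 and cholesterol lists had medians below 0. Of 32 ATF4 targets 28 were below 0 (median -0.21), but 1, ATF5 (-0.25), was called lower and 1, ALDH18A1 (0.25), higher. The share called, 6.25%, was below the 12.2% of all genes. Without replicate 1 the median of the ATF4 list was -0.076. Of 28 NRF2 targets and antioxidant genes (25% called) 6 were called lower, including AKR1B10 (-0.80), AKR1C3 (-0.38), ferritin heavy chain (FTH1, -0.34) and glutathione reductase (GSR, -0.21), and malic enzyme ME1 was called higher, at 14.4, 14.8 and 16.6 FPKM with si-NUF2 and 10.1, 9.202 and 11.4 with si-NC (0.57 ± 0.055, adjusted p = 0.0134). Of 27 cholesterol genes 16 were lower in all 3 pairs (background 25.6%) and the median was -0.19, or -0.11 without replicate 1. The master regulator SREBF2 (-0.26), INSIG2 (-0.39) and STARD4 (-0.39) were called lower, and the enzymes PMVK (0.44) and FDPS (0.22) higher, a share of 18.5%. Among 16 fatty acid genes ME1 was called higher and SCD5 lower (-0.36), a share of 12.5% against 12.2% of all genes. In glycolysis, the pentose phosphate path and the TCA cycle 7 of 43 were called higher, with PFKL (0.59), CS (0.32) and PGAM1 (0.29) among them, and isocitrate dehydrogenase IDH1 was lower, at 21.7, 25.7 and 21.3 FPKM with si-NUF2 and 31.6, 34.5 and 32.9 with si-NC (-0.53 ± 0.054, adjusted p = 0.01402), with groups apart. The share called in that list was 18.6%.

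In the endoplasmic reticulum list of 27 genes 4 were called higher and 0 lower, GANAB, P4HB (0.49), PDIA3 and the sensor ATF6 (0.24), but the median of the list changed sign with the scaling. The share called, 14.8%, was near the 12.2% of all genes. Of 16 heat shock chaperones 3 were called higher (18.75% called), HSP90AA1 (0.43 ± 0.04, adjusted p = 0.0133), HSPD1 (0.50) and CRYAB (0.47). Of 42 lysosomal genes (21.4% called) 7 were called lower, IDUA (-0.48), NEU1 (-0.42), CTSA (-0.36) and LAMP2 (-0.25) among them, and 2 higher, of which the thioesterase PPT1 was at 32.96, 31.8 and 33.97 FPKM with si-NUF2 and 18.4, 20.6 and 19.1 with si-NC (0.76 ± 0.06, adjusted p = 0.01196). Of 59 nuclear subunits of oxidative phosphorylation 6 were called higher and 1 lower, a share of 11.9% against 12.2% of all genes, with NDUFB6 of complex I at 22.7, 19.7 and 20.8 FPKM with si-NUF2 and 15.6, 13.8 and 15.1 with si-NC (0.50 ± 0.044, adjusted p = 0.0123), and with NDUFA8 (0.35) and SDHB (0.33) higher and NDUFA12 (-0.35) lower. None of the 13 mitochondrially encoded genes was called. Among 32 proteasome subunits PSMC3 (0.72), PSMD7 (0.25) and PSMD13 (0.21) were called higher and 0 lower, and of 24 long noncoding RNAs and SNHG hosts NEAT1 was called lower (-0.34). Both shares called, 9.38% and 4.17%, were below the 12.2% of all genes. Of 3 fibroblast and muscle genes above the filter ACTA2 was called higher (0.30).

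**Figure D4:**
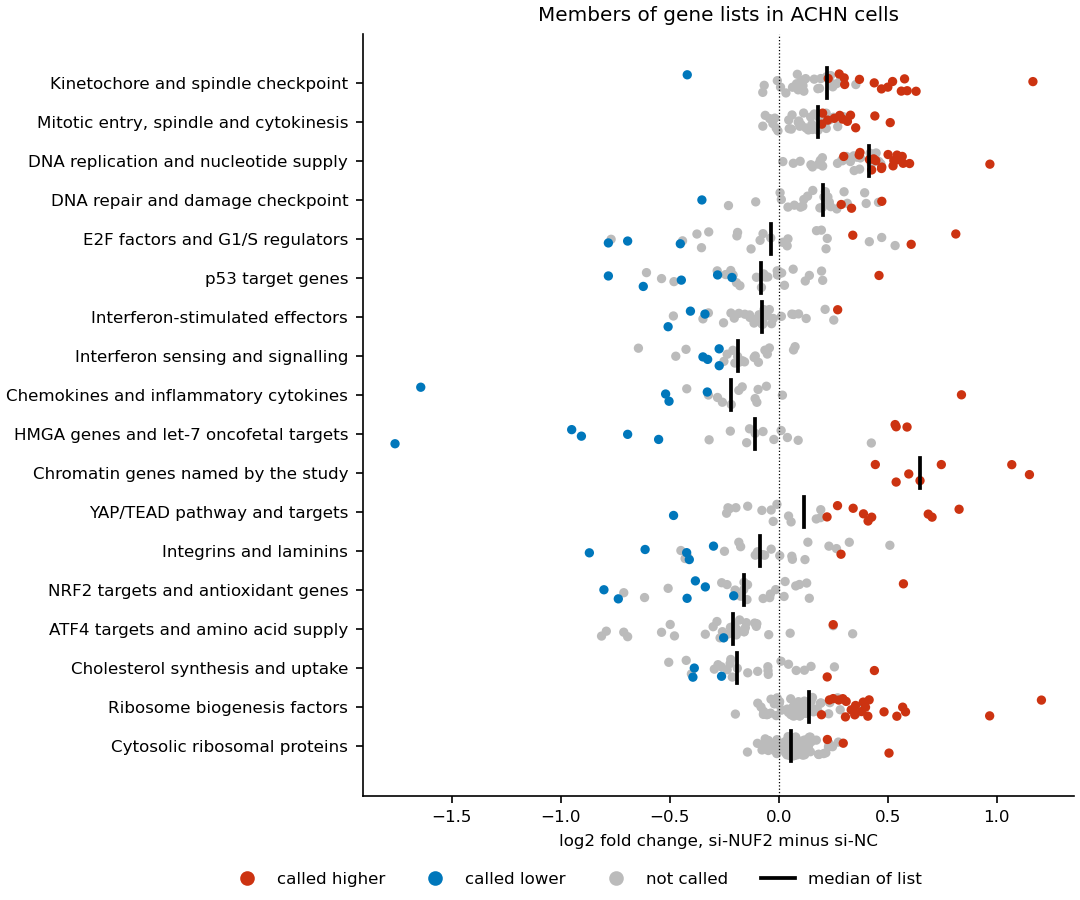
Log2 fold change of si-NUF2 against si-NC (horizontal) for the tested members of 18 gene lists in ACHN cells, 1 point per gene, red for upregulated and blue for downregulated DEGs, gray for genes not called and a black bar for the median of the list. The replication genes all lie above 0, and the interferon, chemokine, ATF4 and cholesterol lists have medians below 0.

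The response of ACHN cells was set beside that of 769-P cells, in which 13.6% of 14155 genes tested were called higher and 13.9% lower with the block. The difference between the lines, the interaction of siRNA and line in 1 limma fit of the 12 libraries, was called for 416 of 12930 genes tested in both (3.22%). Of these 416, 133 were DEGs in ACHN cells, 329 in 769-P cells, and 251 had fold changes of opposite sign. Of the 1712 ACHN DEGs tested in both lines, 1557 had the same sign in 769-P cells. NUF2 and HMGA2 fell in both lines, by log2 values of -1.87 and -1.76 in ACHN against -2.29 and -2.27 in 769-P cells, with differences of 0.42 ± 0.21, adjusted p = 0.289, and 0.51 ± 0.21, adjusted p = 0.211, neither passing the test, and GANAB, ZW10 and SETD7 rose in both (1.85, 1.42 and 1.56 in 769-P cells).

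The lines differed in interferon genes. In 769-P cells 29 of 33 effector genes were called higher and 0 lower, with a median of 1.26, against -0.077 in ACHN cells. The difference was called for 21 of 30 effectors tested in both lines (background 3.22%), each with the lower value in ACHN cells. IFI6, for example, changed by 0.13 ± 0.11 in ACHN and by 2.64 in 769-P cells (difference -2.52 ± 0.17, adjusted p = 0.00641), and IFIT1 by -0.16 ± 0.12 and 2.65 (difference -2.81 ± 0.24, adjusted p = 0.0102). Both were chosen after their values were seen. The effectors were not silent in ACHN cells: IFI6 was at 12.3, 14.04 and 14.4 FPKM with si-NUF2 and 8.898, 14.3 and 15.1 with si-NC. p53 targets differed in the same direction, with 11 of 29 called higher in 769-P cells (background 13.6%) and 9 of 29 differing (background 3.22%), all 9 lower in ACHN cells. CDKN1A had -0.78 in ACHN and -0.10 in 769-P cells (difference -0.68 ± 0.12, adjusted p = 0.0374). Replication genes went the other way by their median, which was 0.42 in ACHN and 0.042 in 769-P cells. The difference was called for 4 of 45 (background 3.22%), GINS1, PRIM1, CDT1 and, named after its value was seen, RFC4, each higher in ACHN cells. Most replication genes thus did not differ by the test. These differences rest on all 3 replicates, since 0 to 49 genes were called when 1 number was left out of both lines, and the list medians were not tested.

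**Figure D5:**
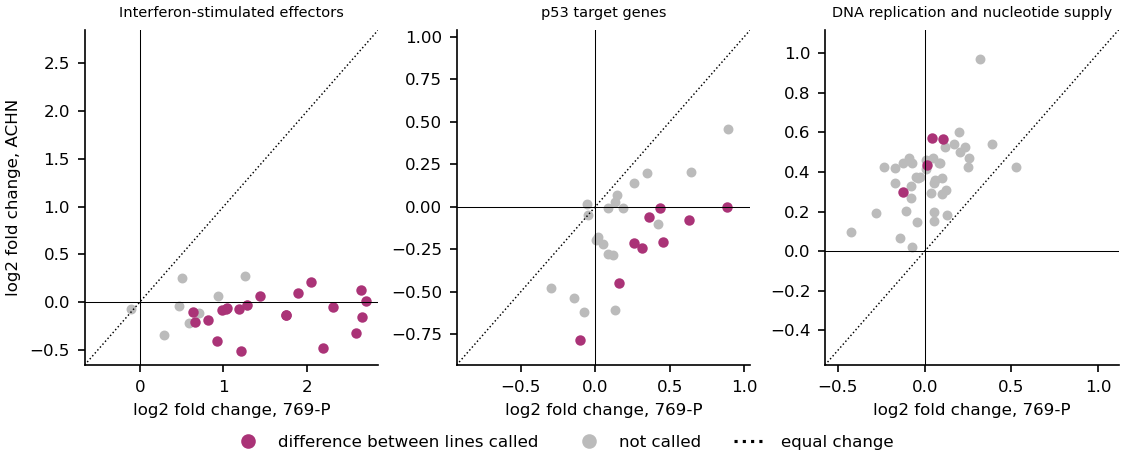
Log2 fold change in ACHN cells (vertical) against that in 769-P cells (horizontal) for the members of 3 gene lists tested in both lines, with genes whose difference between lines was called in purple and a dotted line of equal change. Interferon effectors spread along the 769-P axis and stay near 0 in ACHN cells, p53 targets lie mostly below the dotted line and replication genes mostly above it.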

How the data were processed

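RNA sequencing of 6 ACHN libraries (si-NUF2 and si-NC, 3 each) was analysed, with 6 of 769-P cells for comparison. The authors deposited FPKM per gene and library. The submitters' processing notes name HISAT2 2.0.5, featureCounts 1.5.0-p3 and hg38, and the strand setting is not given in the sources used here. Exon lengths of GENCODE 29 turned 96.4% of values up to 200 reads into whole reads within 0.02, which gave the depth. FPKM were scaled by a trimmed mean of log ratios (30% and 5% trimmed), and log2(FPKM + 0.1), which understates changes of low genes, was fitted with limma 3.58.1 in R 4.3.3, eBayes with a trend, the replicate number as a block and Benjamini-Hochberg adjustment, and fold changes are given as log2 ± SE. Replicates of a group differed beyond sampling noise, with a chi-square per gene of 68.2 or more, so none was deposited as a copy. After subtracting group means, same-numbered libraries correlated at 0.460 to 0.735, so the numbers pair the libraries. Differently numbered ones correlated at -0.56 to -0.062, but subtracting the means partly fixes that sign, so it adds no separate evidence. The pairing comes from the titles, which do not say what a number stands for. Members and lists (55, and 5 added later) were chosen with earlier results of these data known, and no list was tested. Named genes are NUF2, the 15 lowest and 15 highest DEGs with a mean FPKM of at least 1 and 1 sign in all pairs, up to 5 called members per list by adjusted p, the genes the study named, CDH1, and the 10 ACHN DEGs with the firmest difference between lines. A few genes are not reported here. Promoters come from RefSeq (GRCh38.p14), with entries for 10177 of 15116 genes tested. Alternatives were other scalings, pseudocounts (0.01, 1) and filters, no block, all 12 libraries in one fit, robust eBayes, an adjusted p under 0.01, leaving out each replicate, and limma-voom. Figures were made with matplotlib 3.10.9.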

Additional observations from a re-analysis of the deposited data

Results flagged for a closer look

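Of the 214 named genes, 41 are given here because their log2 fold change differed between ACHN and 769-P cells with an adjusted p under 0.05 for the interaction in limma, with the replicate number as a block. The values in parentheses are the log2 fold change in ACHN cells minus that in 769-P cells. 19 were lower in ACHN cells: IFIT3 (-1.72), IL20RB (-1.50), KRT15 (-1.44), IFIT2 (-1.33), THBS1 (-1.12), PIK3IP1 (-1.06), ATRNL1 (-0.90), RNU1-70P (-0.84), KLF4 (-0.84), TPM1 (-0.70), KCNJ16 (-0.70), CDKN1A (-0.68), MXD4 (-0.65), ME1 (-0.62), PHLDA3 (-0.60), COL6A1 (-0.49), AKR1C3 (-0.48), CYR61 (-0.45) and ATF5 (-0.42). The other 22 were higher in ACHN cells: Y_RNA (1.99), OLFML2B (1.39), IL6R (1.19), ADM (0.96), NEFL (0.85), IGFBP4 (0.81), DDAH1 (0.75), CENPM (0.71), LAMP2 (0.64), NEU1 (0.60), AREG (0.59), COL4A1 (0.54), GINS1 (0.53), GSR (0.48), CDT1 (0.46), KRT8 (0.45), CDK2 (0.43), PRIM1 (0.42), DNMT1 (0.42), NDUFB6 (0.38), MAK16 (0.35) and KRT18 (0.35). The Y_RNA copy is ENSG00000201555, and it and RNU1-70P rest on 2 to 9 and 1 to 13 reads per ACHN library. Signs were opposite in the lines, for example, for IL6R (0.67 in ACHN and -0.52 in 769-P cells), OLFML2B (0.58 and -0.81), IL20RB (-0.90 and 0.61), CENPM (0.30 and -0.41) and TPM1 (-0.23 and 0.48), each of which passed the test in both lines. IL6R encodes a receptor chain for IL6, and its level in ACHN cells was 7.398, 3.96 and 7.797 FPKM with si-NUF2 and 5.39, 2.16 and 4.69 with si-NC, higher in every pair. IL20RB, a receptor chain for IL20 family cytokines, was at 0.581, 2.17 and 1.29 FPKM with si-NUF2 and 1.06, 3.42 and 3.33 with si-NC. Without the block the interaction was called for 0 genes by limma, so each of these differences rests on the pairing.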

How the results depend on the processing

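The count of 1843 DEGs (1079 higher, 764 lower) stayed within 1.5 times under pseudocounts of 1 and 0.01, FPKM as deposited, median-ratio and upper-quartile scaling, robust eBayes and a filter of at least 1 FPKM in all 6 libraries. It fell to 0, with 0 higher and 0 lower, without the replicate block (lowest adjusted p = 0.11) and without a filter on low values (33233 genes tested, 5363 with an unadjusted p under 0.05, limma). At an adjusted p under 0.01 there was 1 DEG, 0 higher and 1 lower. limma-voom, chosen after seeing the data, called 3520 (1744 higher, 1776 lower), 1751 of them among the 1843, and all 12 libraries in one fit called 1620 higher. With 1 replicate left out the count ran from 0 to 833, from 0 to 498 higher and from 0 to 335 lower, and without replicate 1 the share called higher was 69.4% in place of 58.5%. The difference between lines was called for 416 genes, for 0 without the replicate block and for 0 to 49 with 1 replicate left out. The NUF2 change was -1.87 without the block and without the filter, where it did not pass, and ran from -2.05 to -1.64 with 1 replicate left out, not passing without replicate 3. Of the other 213 named genes none reversed. All 213 lost their call without the block, without a filter and without replicate 3, 140 without replicate 1 and 88 without replicate 2. At most 14 did under any other setting. The cause of these losses was not tested. Depth limits small RNA copies with at most 13 reads. Where the block moves with the inflammatory split of the replicates, its part in the calls was not tested.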

Other observations

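A few families were chosen once values were known and are given as descriptions. Of 308 ZNF zinc finger genes tested, 210 were above 0, 32 called higher and 4 lower, a share of 11.7% against 12.2% of all genes, with a median of 0.097. ZNF629 was at 10.6, 11.1 and 11.96 FPKM with si-NUF2 and 5.79, 6.17 and 6.09 with si-NC and ZNF317 at 9.76, 8.05 and 8.72 FPKM with si-NUF2 and 5.99, 4.505 and 4.58 with si-NC, both with groups that did not overlap (0.89 ± 0.053, adjusted p = 0.0116, and 0.81 ± 0.064, adjusted p = 0.0118, limma). Many ZNF genes are near-identical in stretches, so reads may be shared. Of 29 RNA polymerase subunits 4 were called higher and 0 lower, a share of 13.8% near that of all genes. POLR2D, a subunit of the stalk of RNA polymerase II, was the furthest, at 8.98, 9.39 and 8.37 FPKM with si-NUF2 and 4.18, 5.23 and 4.495 with si-NC (0.93 ± 0.07, adjusted p = 0.0118). Of 4 insulin-like growth factor binding proteins tested, IGFBP3 and IGFBP4 were called, and IGFBP4 was at 10.7, 26.3 and 39.1 FPKM with si-NUF2 and 4.49, 14.04 and 17.3 with si-NC (1.10 ± 0.076, adjusted p = 0.0116), higher in every pair and lowest in replicate 1 with either siRNA. Of 9 acute-phase and secreted defence genes tested LCN2, an iron siderophore binder, was called higher (0.60), at 36.4, 0.108 and 38.9 FPKM with si-NUF2 and 24.1, 0.0324 and 26.4 with si-NC. Its replicate 2 values lie near the pseudocount of 0.1, which shrinks that pair's change, and its lowest library holds 2 reads. LCN2 was called in 6 of 12 settings.

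Among the marker lists, 2 of 10 renal lineage genes above the filter were called higher, both keratins (KRT8 and KRT18), and the others did not pass. EPAS1 was the 1 called of 13 clear cell markers and MET the 1 called of 5 papillary markers, lower. AREG, a ligand of the EGF receptor, was at 20.9, 18.9 and 19.8 FPKM with si-NUF2 and 13.8, 13.7 and 12.8 with si-NC in ACHN cells (0.56 ± 0.053, adjusted p = 0.0133), with nearly equal levels within each group, and -0.022 was its log2 fold change in 769-P cells.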
